A study of Homo sapiens with 12 samples.

Results

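The 10 inflammatory chemokine and cytokine genes followed here, in 12 libraries from the human lung adenocarcinoma line A549, were CXCL8, CXCL1, CXCL2, CXCL3, CXCL5, CCL2, IL6, IL11, LIF and IL1A. The 10 members were taken by symbol from the merged table of 40605 rows, and each symbol matched 1 row and 1 of 60664 gene identifiers. Chemokines are small secreted proteins that draw leukocytes along a gradient. CXCL8, CXCL1, CXCL2, CXCL3 and CXCL5 carry the ELR motif and act on neutrophils mainly through CXCR2, CXCL8 also through CXCR1, whereas CCL2 acts on monocytes through CCR2. IL6, IL11 and LIF each bind a receptor of their own and signal through the shared chain IL6ST to JAK kinases and STAT3. IL1A is an alarmin that switches on NF-kB, and NF-kB and AP-1 are textbook activators of most of these genes in epithelial cells.

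The cells carried a doxycycline-inducible DYRK1B, either wild type (WT) or Y273F, a form of the kinase in which the tyrosine of the activation loop is replaced. The 4 groups named by the titles were A549 D1B WT with doxycycline (2 µg/ml for 7 days), WT control, Y273F with doxycycline and Y273F control, with 3 libraries each. The series text speaks of separate cell populations handled in parallel, the batch label is the same for all libraries, and each line carries the transgene, so an effect of doxycycline and an effect of DYRK1B cannot be told apart here. The sources used here do not say whether a line is 1 clone.

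RNA was read at its polyadenylated 3' end, and values are counts or CPM, counts scaled to a common library total with TMM factors. Totals ran from 2815673 counts in Y273F doxycycline 1 to 22319921 in Y273F control 3, so that the level of 3 counts, used as the floor, lay between 0.133 and 1.05 CPM. DYRK1B itself was read at 28, 4 and 7.73 CPM in the libraries labelled WT doxycycline, against 5.7, 3.12 and 5.52 CPM in those labelled WT control. The libraries labelled Y273F doxycycline had 4.57, 4.81 and 19.7 CPM, against 2.6, 12.4 and 3.18 CPM in those labelled Y273F control. DYRK1B levels thus went against some labels, and a transgene with another 3' end would not be read in this gene. Its log2 fold changes (doxycycline over control) were 1.43 (SE 0.82) in the WT line and 0.87 (SE 0.84) in the Y273F line, with adjusted p of 0.9998 and 0.9923 in edgeR. They rest on single libraries, being 0.26 in the WT line without WT doxycycline 1 and -0.25 in the Y273F line without Y273F doxycycline 3. The difference of these effects was -0.56 (SE 1.16), and Y273F control against WT control 0.18 (SE 0.85). All groups below are groups as labelled. A principal component of the 500 most variable genes, with 66.3% of their variance, set 3 libraries apart: those labelled WT doxycycline 3, Y273F doxycycline 1 and WT control 2 were at 42.7, 45.2 and 46.9, and none of the other 9 was above -4.74. Their library names carry the numbers 6, 10 and 2. Values are therefore also given by library number, in the sets 1/5/9, 2/6/10, 3/7/11 and 4/8/12, each of which mixes libraries of 3 of the titles' groups. These sets are no groups of the labels and are described with no test.

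The 5 ELR chemokine genes lie together on chromosome 4 of GRCh38.p14 (RefSeq): CXCL8 at 73740569 to 73743716, CXCL1 at 73869393 to 73871308, CXCL5 at 73995642 to 73998677, CXCL3 at 74036589 to 74038689 and CXCL2 at 74097040 to 74099195. The other members are on other chromosomes, CCL2 on 17 (34255285 to 34257203), IL6 on 7 (22727200 to 22731998), IL11 on 19 (55364382 to 55370463), LIF on 22 (30240453 to 30246759) and IL1A on 2 (112773925 to 112784493). The promoter windows below run from 140 to 41 bases before the start of the gene, 5′ to 3′ on the strand of the gene, from RefSeq on GRCh38.p14. They are shown because the ELR chemokine genes share a run of bases there that IL11 lacks. Capitals mark GGAATTTCC, a run of the kind NF-kB binds, and TGANTCA (N is any base), a broad form of the AP-1 site.
CXCL8 (chr4:73740429-73740528, plus strand): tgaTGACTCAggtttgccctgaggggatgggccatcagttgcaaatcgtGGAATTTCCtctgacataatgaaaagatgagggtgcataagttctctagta
CXCL1 (chr4:73869253-73869352, plus strand): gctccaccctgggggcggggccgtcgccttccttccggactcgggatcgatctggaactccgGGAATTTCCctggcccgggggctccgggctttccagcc
CXCL2 (chr4:74099236-74099335, minus strand): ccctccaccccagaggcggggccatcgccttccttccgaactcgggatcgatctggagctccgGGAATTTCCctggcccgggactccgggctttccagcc
CXCL3 (chr4:74038730-74038829, minus strand): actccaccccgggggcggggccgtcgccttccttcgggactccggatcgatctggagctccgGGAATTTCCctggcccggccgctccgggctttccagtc
CXCL5 (chr4:73998718-73998817, minus strand): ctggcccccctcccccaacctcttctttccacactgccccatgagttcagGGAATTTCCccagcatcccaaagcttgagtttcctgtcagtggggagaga
IL11 (chr19:55370504-55370603, minus strand): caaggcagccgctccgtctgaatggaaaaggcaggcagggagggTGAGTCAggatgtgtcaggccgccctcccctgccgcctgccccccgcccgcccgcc

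Over the 250 bases before the start, searched on both strands, 5 of the 8 members with an entry held GGAATTTCC, and these were the 5 ELR chemokine genes. Of all 35116 promoters, 0.413% held it. Other runs that NF-kB can bind were not searched, so IL6 and the other members without GGAATTTCC are not shown to lack one. TGANTCA was in CXCL8, IL11 and IL1A, 3 of 8 members, against 6.57% of all promoters. The members' matches were all TGACTCA or TGAGTCA, whereas the share of all promoters takes any base at N. The letters of both motifs were chosen after the windows had been seen, no base is shared between the motifs, and a match is a description of sequence. CXCL1, CXCL2 and CXCL3 are near copies. CXCL1 and CXCL2 share a run of 42 bases upstream, and a run of 77 bases within the last 300 bases of their transcripts, where 3' tags fall. Reads within that run cannot be told apart and would be tallied as multimapping, so the levels of CXCL1 and CXCL2 are uncertain. CXCL3 shares at most 21 bases with either in that stretch.

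CXCL5, a neutrophil attractant, had 264 to 5641 counts a library. It was read at 186, 282 and 123 CPM in WT doxycycline libraries, against 298, 80.8 and 231 CPM in WT control libraries. In Y273F doxycycline libraries it had 92.8, 216 and 186 CPM, against 212, 197 and 249 CPM in Y273F control libraries. The groups overlapped in both lines, and the lowest 3 values belonged to WT control 2, Y273F doxycycline 1 and WT doxycycline 3. CXCL3, a ligand of the same receptor, had 11.7, 17.2 and 3.17 CPM in WT doxycycline libraries and 17.3, 2.67 and 17.8 CPM in WT control libraries. Its levels were 3.87, 13.8 and 12.8 CPM with doxycycline and 10.9, 10.5 and 19.4 CPM in controls of the Y273F line. The same libraries were lowest for CXCL3 as for CXCL5.

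CXCL1 had 3.98, 3.18 and 2.76 CPM in WT doxycycline libraries and 3.91, 2.45 and 4.97 CPM in WT control libraries, then 3.87, 4.61 and 3.53 CPM in Y273F doxycycline libraries and 4.71, 4.57 and 3.58 CPM in Y273F control libraries. CXCL2 had 4.55, 5.94 and 3.72 CPM in WT doxycycline libraries and 4.81, 2.89 and 4.2 CPM in WT control libraries. In the Y273F line CXCL2 was at 4.22, 3.85 and 2.25 CPM with doxycycline and at 4.33, 3.92 and 6.1 CPM in controls. Both genes stayed within a narrow band in all libraries, and their groups overlapped. CXCL8, which encodes interleukin 8, was low throughout, with 4 to 49 counts a library. Its levels were 0.854, 1.64 and 4.97 CPM in WT doxycycline libraries, 1.23, 5.79 and 0.663 CPM in WT control libraries, 1.76, 1.92 and 1.5 CPM in Y273F doxycycline libraries and 0.495, 2.29 and 2.17 CPM in Y273F control libraries. Its highest values were in WT control 2 and WT doxycycline 3, while Y273F doxycycline 1 lay among the others.

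CCL2, the monocyte attractant, was read at 15.8, 6.45 and 165 CPM in WT doxycycline libraries, against 7.93, 160 and 7.73 CPM in WT control libraries. Y273F doxycycline libraries had 137, 9.04 and 22.7 CPM, against 10.4, 24.2 and 8.09 CPM in Y273F control libraries. In each of 3 groups a single library was far above its partners, and the groups overlapped. In bulk RNA, more cells that express a gene and more RNA per cell cannot be told apart.

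IL11, a cytokine of the IL6 family made by stromal and epithelial cells, had the same single high libraries. Its levels were 10.2, 3.59 and 58.5 CPM in WT doxycycline libraries and 4.69, 76.1 and 5.63 CPM in WT control libraries. Y273F doxycycline libraries had 44.6, 4.23 and 11.5 CPM, and Y273F control libraries had 4.83, 10.8 and 3.05 CPM. LIF, a family member that acts through LIFR and IL6ST, was at 8.68, 3.38 and 7.17 CPM in WT doxycycline libraries and 4.13, 6.23 and 7.62 CPM in WT control libraries. It had 9.14, 7.69 and 6.95 CPM in Y273F doxycycline libraries and 4.33, 8.16 and 6.67 CPM in Y273F control libraries. The groups overlapped for LIF, and unstranded counts, which add reads of the opposite strand, moved its log2 fold change from 0.09 to 0.63 in the WT line and from 0.07 to 0.85 between the control lines, with no call.

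IL6 and IL1A were at or near 0. IL6 had 0, 0 and 4 counts in WT doxycycline libraries, 0, 3 and 1 in WT control libraries, 0, 1 and 5 in Y273F doxycycline libraries and 0 in each Y273F control library. IL1A had 0, 0 and 5 counts in WT doxycycline libraries, 2, 10 and 0 in WT control libraries, 1, 0 and 0 in Y273F doxycycline libraries and 1, 0 and 0 in Y273F control libraries. For each gene, 10 of 12 libraries were at or under the floor, so at this depth no level could be compared between groups. Neither passed the filter on low counts, and the other 8 members did.

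**Figure D1:**
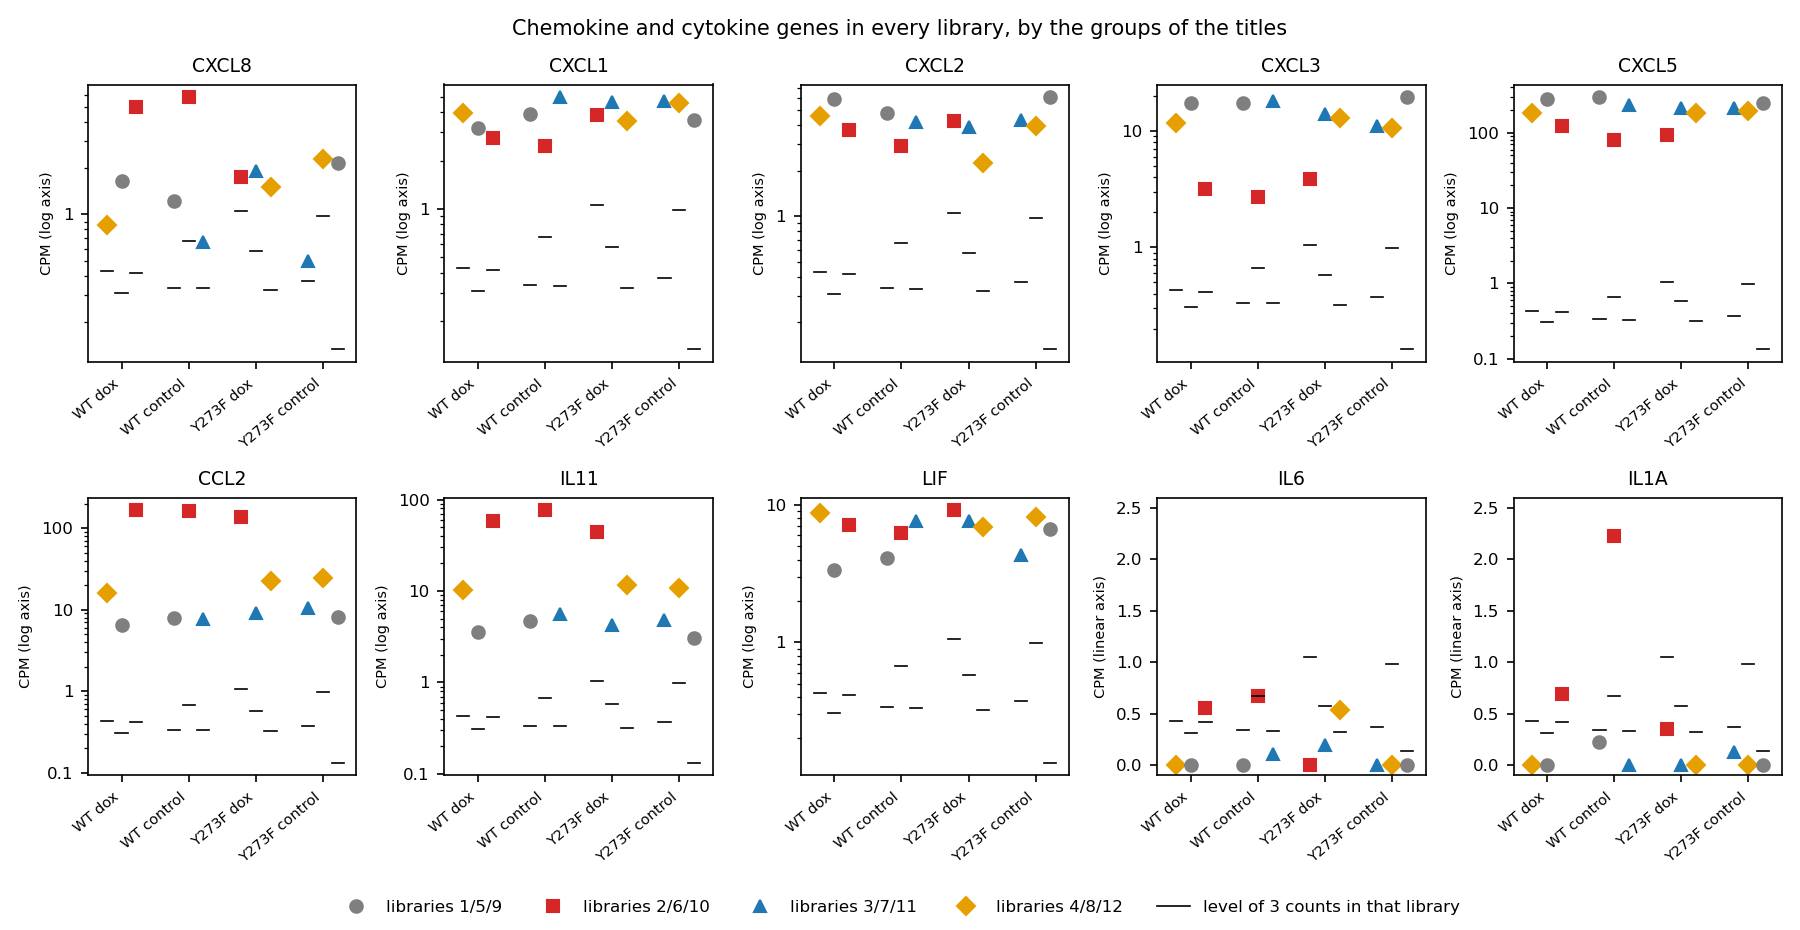
Level of each of the 10 genes in CPM in every library, by the titles' groups, with doxycycline left of control in each line; symbols give the set of library numbers and short lines the level of 3 counts in that library. The groups overlap in each panel, CCL2 and IL11 are highest in the squares (libraries 2, 6 and 10), and IL6 and IL1A lie at or near 0.

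The doxycycline effect in the WT line, the first comparison of the design, passed the threshold (edgeR quasi-likelihood test, adjusted p under 0.05) for none of the 8 members tested, beside 0% of all 13838 genes tested. Over all genes, 134 had an unadjusted p under 0.05 in edgeR, 116 in DESeq2 and 158 in limma-voom, and no member did in edgeR. Each of these is a smaller share of the genes than 0.05, the share expected with no effect. Each group as labelled holds libraries of different library-number sets, so gaps between sets enter the spread behind every test. In this and the next comparisons, a member not past the threshold is thus not shown to be unchanged. The members' log2 fold changes were positive in 4 and negative in 4, with a median of -0.002, beside a median of -0.002 and 49.6% positive over all genes. No member had groups apart, beside 3.27% of all genes. The log2 fold change of CXCL2 was 0.24 (SE 0.34) and that of CXCL1 -0.21 (SE 0.32). CCL2 was at 0.12 with a 95% interval from -2.88 to 3.13, and IL11 at -0.22 with an interval from -2.85 to 2.40. For CXCL1, the member with the narrowest interval, it ran from -0.91 to 0.48.

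In the Y273F line no member passed either (0 of 8, beside 0% of all genes), and 225, 232 and 223 genes had an unadjusted p under 0.05 in edgeR, DESeq2 and limma-voom. The members were positive in 4 and negative in 4 with a median of -0.005, beside 0.005 and 50.8% positive over all genes. Groups were apart in none of the 8, beside 10.9% of all genes. CCL2 averaged 56.1 ± 70.1 CPM with doxycycline and 14.2 ± 8.69 CPM in controls (SD, n = 3 each), which gave a log2 fold change of 2.03 (SE 1.49, 95% interval -1.23 to 5.29). IL11 averaged 20.1 ± 21.5 CPM with doxycycline and 6.22 ± 4.05 CPM in controls (SD, n = 3 each), which gave a log2 fold change of 1.78 (SE 1.34). With the libraries numbered 2, 6 and 10 left out these values were 0.32 (SE 0.52) for CCL2 and 0.57 (SE 0.60) for IL11, so the size in both rests on Y273F doxycycline 1. CXCL2 was at -0.54 (SE 0.35) with all libraries and at -0.75 (SE 0.36) without those 3.

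The difference of the effects (Y273F effect minus WT effect) passed for none of the 8 members, beside 0% of all genes, with 165, 144 and 161 genes at an unadjusted p under 0.05 in edgeR, DESeq2 and limma-voom. Its median over the members was 0.08, with 5 positive and 3 negative, beside 0.011 and 51.6% positive over all genes. CCL2 was at 1.91 (SE 2.01) and at -0.16 (SE 0.78) without libraries 2, 6 and 10, which turns its direction. IL11 was at 2.00 (SE 1.79), at 0.17 (SE 0.89) without those 3 libraries and at -0.43 without WT control 2 alone. CXCL2 was at -0.79 (SE 0.49). This difference shares its libraries with both doxycycline comparisons.

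Between the lines without doxycycline, Y273F control against WT control, again 0 of 8 members passed (0% of all genes), and 460, 481 and 478 genes had an unadjusted p under 0.05 in edgeR, DESeq2 and limma-voom. No member had groups apart, beside 10.8% of all genes, and the median was 0.09, beside -0.021 over all genes. IL11 averaged 6.22 ± 4.05 CPM in Y273F control libraries and 28.8 ± 41 CPM in WT control libraries (SD, n = 3 each), which gave a log2 fold change of -2.33 (SE 1.33). CCL2 averaged 14.2 ± 8.69 CPM in Y273F control libraries and 58.4 ± 87.6 CPM in WT control libraries (SD, n = 3 each), which gave a log2 fold change of -2.10 (SE 1.48). Without libraries 2, 6 and 10 these became 0.08 (SE 0.62) for IL11 and 0.73 (SE 0.55) for CCL2, so both directions turned when WT control 2 was gone. With 9 libraries, too, no gene of 14039 passed in any of the 4 comparisons, and 305, 259, 249 and 812 had an unadjusted p under 0.05 in edgeR, in the order given here.

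**Figure D2:**
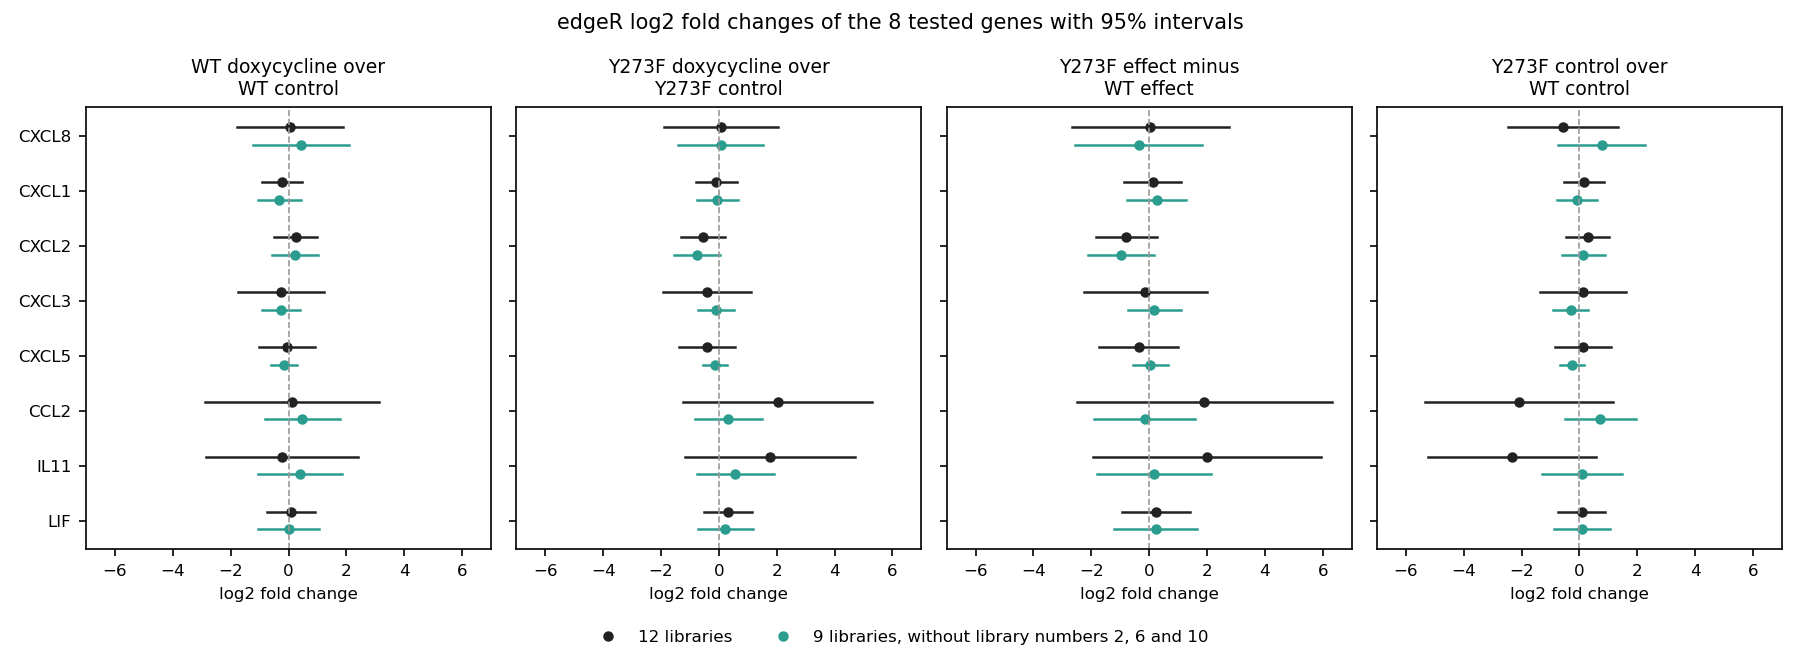
Log2 fold changes (x axis) of the 8 tested genes in the 4 comparisons, with 95% intervals, from all 12 libraries (black) and from the 9 libraries without numbers 2, 6 and 10 (green). All intervals of both fits hold 0, and those of CCL2 and IL11 are the widest with 12 libraries, for example -1.23 to 5.29 for CCL2 in the Y273F line.

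Set out by library number, CCL2 and IL11 were highest and CXCL3 and CXCL5 lowest in libraries 2, 6 and 10. CCL2 had 160, 165 and 137 CPM in libraries 2, 6 and 10 and 6.45 to 24.2 CPM in the other 9, and IL11 had 76.1, 58.5 and 44.6 CPM there and 3.05 to 11.5 CPM in the other 9. CXCL3 went the other way, with 2.67, 3.17 and 3.87 CPM there and 10.5 to 19.4 CPM in the other 9, and so did CXCL5, with 80.8, 123 and 92.8 CPM there and 186 to 298 CPM in the other 9. Of the 8 members tested, 2 lay above and 2 below the other 9 libraries in this set, beside 18.5% of all genes above and 15.6% below, so genes without overlap were common in these libraries. These shares count gaps of any size, and how many genes had gaps as wide as those of CCL2 and IL11 was not counted. CXCL8, CXCL1, CXCL2 and LIF overlapped. Of the members at the floor, IL1A had 10, 5 and 1 counts in libraries 2, 6 and 10, or 2.23, 0.69 and 0.351 CPM, and at most 0.224 CPM in the other 9. Library 10 had the lowest depth, and its 1 count lies under the floor of 1.05 CPM there.

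A ratio of counts within a library does not depend on scaling between libraries, and 3' tags are not divided by transcript length. There were 1.98, 1.34 and 1.47 CCL2 counts per CXCL5 count in libraries 2, 6 and 10, and 0.0229 to 0.123 in the other 9. CCL2 counts thus exceeded CXCL5 counts in those 3 libraries and were far below them elsewhere.

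The set 4/8/12, which held the highest DYRK1B levels (12.4 to 28 CPM, against 2.6 to 7.73 CPM in the other 9), lay between. CCL2 had 15.8, 24.2 and 22.7 CPM in libraries 4, 8 and 12 and 6.45 to 10.4 CPM in the 6 libraries of the sets 1/5/9 and 3/7/11. IL11 had 10.2, 10.8 and 11.5 CPM in libraries 4, 8 and 12 and 3.05 to 5.63 CPM in those 6. CXCL5 had 186, 197 and 186 CPM in libraries 4, 8 and 12 and 212 to 298 CPM in those 6. Thus 2 of 8 members were above the 6 libraries and 1 below, beside 5.29% and 4.69% of all genes. The full order, 2/6/10 above 4/8/12 above the other 6, was met by CCL2 and IL11 (2 of 8, beside 2.45% of all genes) and the reverse by CXCL5 (1 of 8, beside 1.52%).

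The remaining sets differed less. CXCL5 had 298, 282 and 249 CPM in libraries 1, 5 and 9 and at most 231 CPM elsewhere, and CXCL2 had 4.81, 5.94 and 6.1 CPM there and at most 4.55 CPM elsewhere, 2 of 8 members beside 2.94% of all genes above, and no member below, beside 2.41%. CXCL1 had 4.97, 4.71 and 4.61 CPM in libraries 3, 7 and 11 and at most 4.57 CPM elsewhere, on 24 to 45 counts a library in that set (1 of 8, beside 1.22%), and no member lay below (beside 1.12%). The lowest value in the set was only 1.01 times the highest elsewhere for CXCL1, 1.06 times for CXCL2 and 1.08 times for CXCL5. For CXCL1 these were 24 counts in library 11 and 14 in library 8, and for CXCL2 43 in library 1 and 32 in library 4. Whether such gaps exceed counting error was not tested. Between the sets 1/5/9 and 3/7/11, CXCL2 and CXCL5 were higher in 1/5/9 (2 of 8, beside 9.89% of all genes) and CXCL1 was lower (1 of 8, beside 9.42%). No member stood alone in libraries 4, 8 and 12, beside 1.16% of genes above and 1.27% below.

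**Figure D3:**
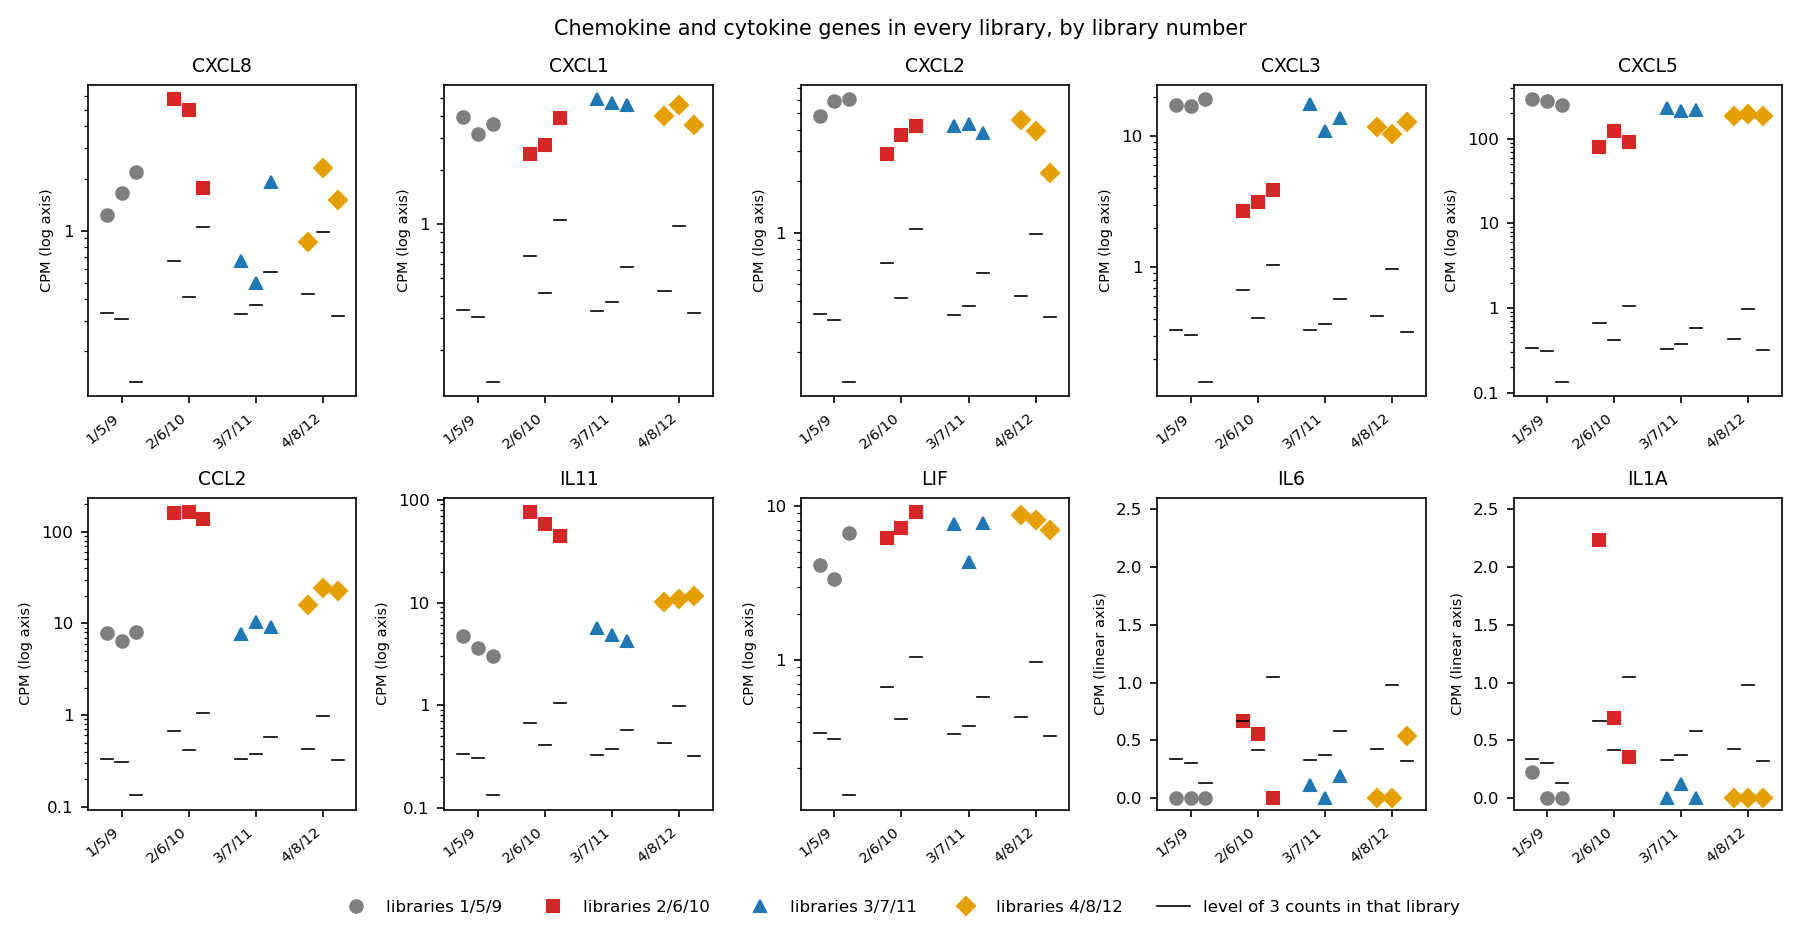
Level of each of the 10 genes in CPM in every library, by the set of library numbers (x axis), with short lines at the level of 3 counts in that library. CCL2 and IL11 are highest in 2/6/10, next in 4/8/12 and lowest in the other 6, while CXCL5 and CXCL3 are lowest in 2/6/10.

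**Figure D4:**
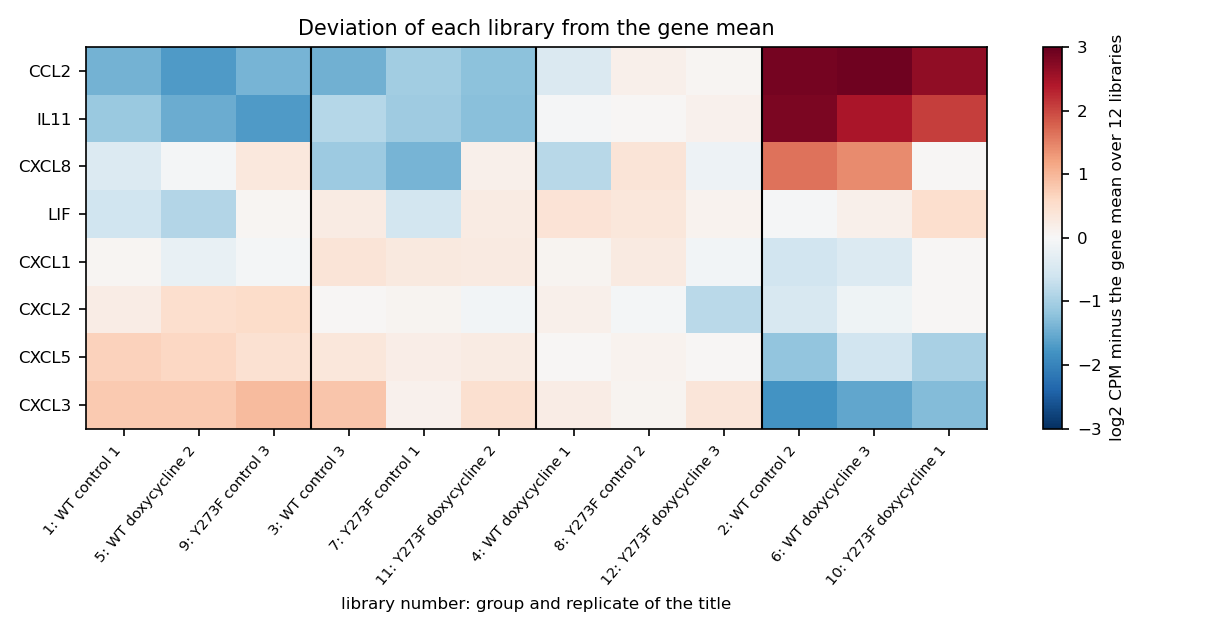
Log2 CPM (prior count 2) minus the mean of the gene over 12 libraries, for the 8 tested genes (rows), with libraries in columns by set and named by title. CCL2 and IL11 (top rows) and CXCL5 and CXCL3 (bottom rows) have opposite signs in libraries 2, 6 and 10, whichever group the title names.

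Pairs of members were compared over the 9 libraries outside 2/6/10, as a description over libraries that share sets and differ in depth. CCL2 and IL11 had a Pearson r of 0.917 in log2 CPM, and CXCL3 and CXCL5 one of 0.781. CXCL5 and CCL2 had -0.819, CXCL3 and CCL2 -0.771, and the values of CXCL8 with the other members ran from -0.418 to 0.168. Among 10460 genes with a mean of at least 5 CPM, those most like each member over all 12 libraries included SAMD9L (r 0.995) and PALM2AKAP2 (0.994) for CCL2. For IL11 the first 3 were SPOCK1 (0.995), BMP1 (0.991) and EFR3B (0.990), for CXCL3 NSMCE1 (0.995), PDLIM5 (0.988) and CACNG6 (0.984), and for CXCL5 FOXA3 (0.977), MUC5B (0.977) and PLA2G4A (0.973). LIF had lower values, with TP53BP1 (0.872), ACADM (0.864) and LAMA3 (0.860). Over the 9 libraries outside 2/6/10, CCL2 had an r of 0.963 with SAMD9L and 0.955 with PALM2AKAP2. IL11 had 0.970 with SPOCK1, 0.957 with BMP1 and 0.970 with EFR3B. CXCL3 had 0.966 with NSMCE1, 0.890 with PDLIM5 and 0.829 with CACNG6. CXCL5 had 0.939 with FOXA3, 0.919 with MUC5B and 0.837 with PLA2G4A. For LIF the values were 0.853 (TP53BP1), 0.907 (ACADM) and 0.889 (LAMA3). These genes were picked on all 12 libraries, which include the 9, so the values are no separate check.

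Lists of related genes were read in the same way, with 18.5% of all genes above and 15.6% below the other 9 in libraries 2, 6 and 10 as the background for each list. No gene of the lists passed in any of the 4 comparisons (edgeR, adjusted p under 0.05), beside 0% of all genes. List medians of log2 fold changes lay between -0.16 and 0.06 for doxycycline in the WT line and between -0.05 and 0.36 in the Y273F line, beside -0.002 and 0.005 over all genes. For the difference of the effects they lay between -0.17 and 0.23, and between the control lines from -0.40 to -0.02, beside 0.011 and -0.021.

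Of 24 other chemokine genes 5 passed the filter, among them CXCL16, a membrane-bound ligand, at 8.46 to 13 CPM in libraries 2, 6 and 10 and 11.8 to 21.8 CPM in the other 9. CCL26, an eosinophil attractant, had 12.1 to 16.9 CPM there and 1.63 to 6.92 CPM in the other 9, and CCL5, which attracts T cells and was picked after its values were seen, 1.41 to 3.34 CPM there and at most 0.884 CPM in the other 9. CCL5 needed libraries 2, 6 and 10 to pass the filter, so its place above the others is no support. In library 10 its 1.41 CPM lay near the floor of 1.05 CPM. PF4 and CX3CL1 overlapped. Of the 5 receptors of the members' proteins none passed. CCR2 and ACKR1 had 0 counts in all libraries, CXCR1 at most 1, CXCR2 at most 2 and the decoy receptor ACKR2 at most 7.

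Among 7 other ligands of the IL6 family, 3 passed. CLCF1 had 5.97 to 7.35 CPM in libraries 2, 6 and 10 and 3.41 to 10.5 CPM in the other 9, and EBI3, a subunit of heterodimeric cytokines, 3.59 to 6.32 CPM there and 0.224 to 2.28 CPM in the other 9. Like CCL5, EBI3 needed libraries 2, 6 and 10 to pass the filter. The receptor and signalling list had 13 of 15 genes tested, and the shared chain IL6ST had 98.9 to 121 CPM in libraries 2, 6 and 10 and 115 to 146 CPM in the other 9. The transducer STAT3 had 245 to 268 CPM there and 152 to 178 CPM in the other 9, and the kinase JAK1 186 to 206 CPM there and 84.8 to 118 CPM in the other 9. In all, 2 genes of the list lay above and 1, TYK2 (named after its values were seen), below. Of 17 IL1 family and signalling genes 9 were tested. IL18 had 145 to 174 CPM in libraries 2, 6 and 10 and 59.8 to 85 CPM in the other 9, and the kinase IRAK1 289 to 319 CPM there and 133 to 207 CPM in the other 9, whereas MYD88 and IRAK4 overlapped.

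Of the AP-1 and C/EBP factors, 11 of 12 were tested, and 5 lay above and 2 below the other 9 in libraries 2, 6 and 10, beside 18.5% and 15.6% of all genes. FOSL2 had 75.5 to 101 CPM there and 36 to 46.9 CPM in the other 9. JUN, picked after its values were seen, had 126 to 138 CPM there and 13.2 to 47 CPM in the other 9, and JUNB, FOSL1 and ATF3, picked likewise, were the others above. CEBPD had 87.1 to 102 CPM in libraries 2, 6 and 10 and 134 to 246 CPM in the other 9, CEBPB 43.9 to 62.1 CPM there and 65.9 to 91.1 CPM in the other 9, and CEBPG overlapped. Of the NF-kB subunits and kinases 11 were tested, and none lay above and 1, MAP3K7, below, beside the same shares of all genes. RELA had 64.6 to 76.6 CPM in libraries 2, 6 and 10 and 56.2 to 68.6 CPM in the other 9, and NFKB1 and NFKBIB overlapped too.

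Of the NF-kB feedback and other target genes 13 of 18 were tested, with 4 above and 2 below, beside 18.5% and 15.6% of all genes. PTGS2, which encodes cyclooxygenase 2, had 21.1 to 25.2 CPM in libraries 2, 6 and 10 and 72.4 to 206 CPM in the other 9. NFKBIA, the inhibitor that NF-kB induces, had 108 to 112 CPM there and 119 to 147 CPM in the other 9, whereas TNFAIP2 had 300 to 339 CPM there and 229 to 279 CPM in the other 9 and IER3 overlapped. The others above, picked after their values were seen, were TNIP1, NFKBIE and TRAF1. TNIP1 had 95.6 to 105 CPM there and 54.2 to 75.7 CPM in the other 9, and NFKBIE 14.1 to 19.3 CPM there and 6.35 to 12.3 CPM in the other 9. TRAF1 needed libraries 2, 6 and 10 to pass the filter. All 13 genes of mRNA decay were tested, since chemokine and cytokine mRNAs are rich in AU elements, with 1 above and 3 below, beside the same shares. ZFP36L1, which promotes decay of such mRNAs, had 708 to 735 CPM in libraries 2, 6 and 10 and 295 to 518 CPM in the other 9, and its relative ZFP36L2 67.8 to 91.3 CPM there and 108 to 257 CPM in the other 9. HNRNPD had 178 to 203 CPM there and 258 to 305 CPM in the other 9, and KHSRP overlapped.

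**Figure D5:**
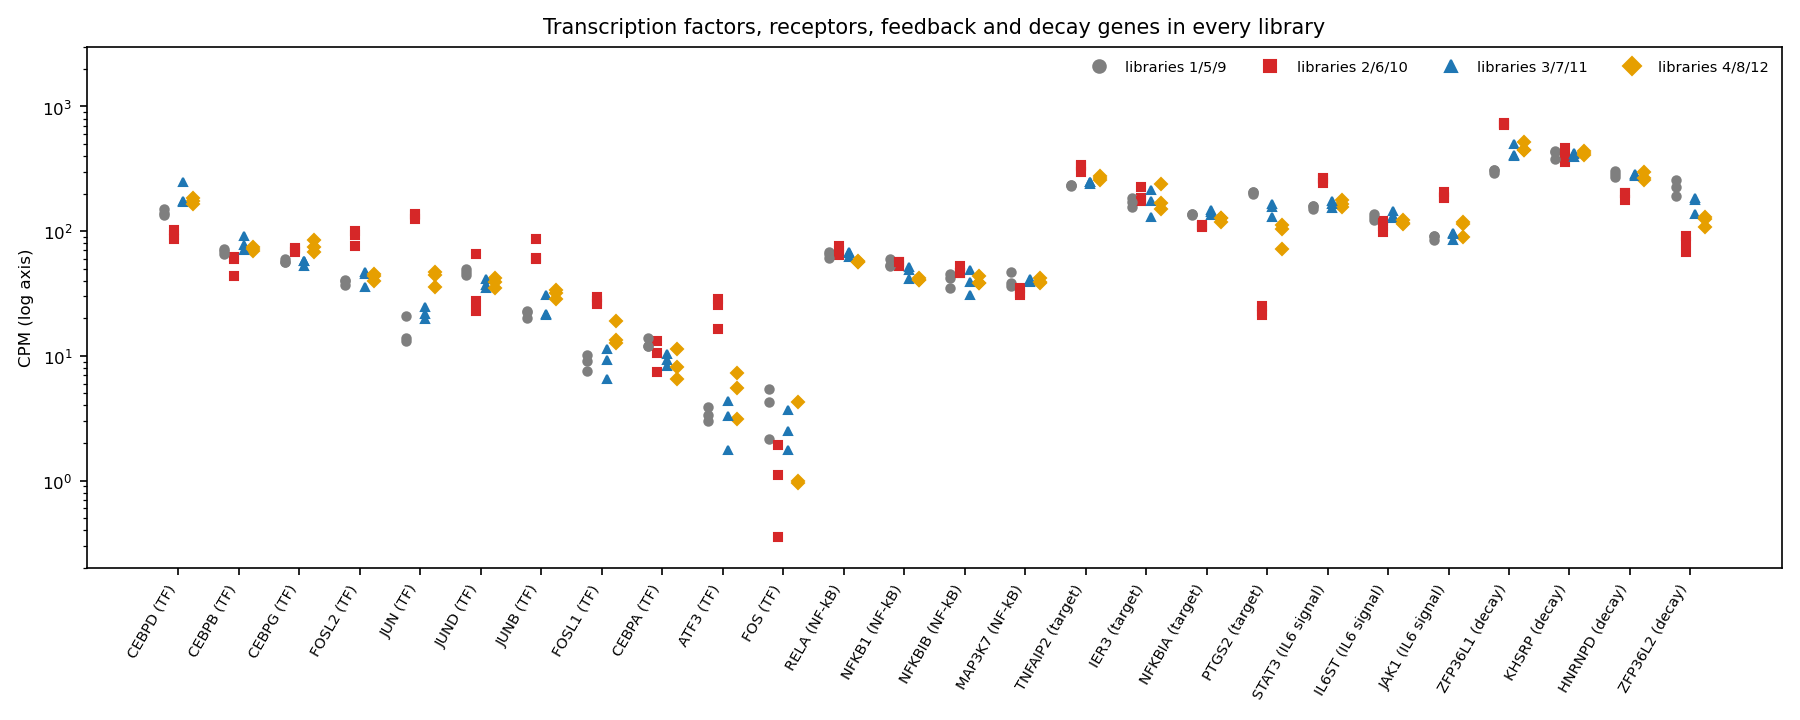
Level in CPM (log axis) in every library of the 11 tested AP-1 and C/EBP genes and of up to 4 of the most abundant tested genes of the NF-kB subunit, NF-kB target, IL6 signalling and decay lists, with symbols by set of library numbers. The squares (libraries 2, 6 and 10) stand above the rest for JUN, at 126 to 138 CPM, and below for PTGS2, at 21.1 to 25.2 CPM, while RELA overlaps.

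Markers of cell types were read beside these patterns. The 5 epithelial markers summed to 7970 to 11000 CPM in libraries 2, 6 and 10 and to 3030 to 4560 CPM in the other 9. Most of each sum was KRT18, at 6110 to 8460 CPM there and 2260 to 3360 CPM in the other 9. KRT8 and KRT19 were higher there too, whereas CDH1 was lower, at 24.3 to 30.2 CPM against 43.4 to 65.6 CPM. EPCAM overlapped, at 4.57 to 6.68 CPM there and 4.69 to 31.9 CPM in the other 9, so the sum does not speak for each marker. The 6 fibroblast markers summed to 146 to 210 CPM there and to 14.2 to 31.6 CPM in the other 9, through COL1A1 (135 to 195 CPM there and 13.1 to 30.2 CPM in the other 9) and LUM (11.3 to 13.6 CPM there and at most 1.54 CPM in the other 9). The other fibroblast markers did not pass the filter: DCN had 0 counts in 11 libraries, COL1A2 at most 3 counts, PDGFRB at most 6 and COL3A1 at most 8. LUM needed libraries 2, 6 and 10 to pass it. The 6 leukocyte and macrophage markers summed to 7.57 to 12 CPM there and to 6.2 to 12.2 CPM in the other 9, with CD3E at 0 and PTPRC at most 1 count. Most of each sum was CD14, at 5.34 to 10.8 CPM there and 4.9 to 8.81 CPM in the other 9. LYZ had 0.223 to 0.414 CPM there and 0 to 3.62 CPM in the other 9. Neither CD68, with at most 6 counts, nor CSF1R, with at most 5, passed the filter. The 4 endothelial markers reached at most 0.276 CPM there and 0.577 CPM in the other 9, with VWF and KDR at 0. The part of these markers in the levels of CCL2, IL11, CXCL3 and CXCL5 was not tested.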

How the data were processed

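Per the labels' protocols, column-purified RNA of 12 cultures was made into QuantSeq FWD V2 libraries, a stranded 3' tag method. The submitters' processing notes name STAR and GRCh38.p14. The version of STAR, the annotation and any use of molecular identifiers were not given in the sources used here. What the authors deposited are whole-number counts of reads by gene and library (unstranded and per strand) and a merged count table; transcript-strand counts were used, and all 10 members' rows were equal in both. Reads assigned to no gene, 35.5% to 43.2% per library, were left out. Floors cover counting error only.

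Counts were filtered (filterByExpr, minimum count 10), TMM-scaled and tested with edgeR 4.0.16 (R 4.3.3) in 1 fit of 4 groups, with Benjamini-Hochberg adjustment over 13838 genes. No pair of 66 libraries was identical. P-values set each difference between groups against the spread of libraries within groups. Here that spread includes the gaps between library sets. Same-numbered replicates were not taken as pairs. Their deviations had r from -0.636 to 0.24. Libraries 2, 6 and 10 carry different replicate numbers, so gaps between library sets enter these values, which cannot settle the pairing. Named genes are the 10 members, DYRK1B, up to 4 tested genes of highest mean CPM per list, and the 3 genes most like each member with a mean of at least 5 CPM. A few genes that this rule takes are not reported here. Members, lists and comparisons were chosen with earlier results of these data known. The name table held 60463 of the 60664 gene identifiers; promoters are RefSeq's, and 8 of 10 members had an entry. The script was tested on simulated data that held no gaps between library sets, so that test does not cover data with such gaps. Alternatives were DESeq2 1.42.0 (Wald test and size factors), limma-voom (limma 3.58.1), other filters (none, minimum count 50), a replicate block, fits of the compared groups alone, unstranded counts, the merged table, and leaving out each library or libraries 2, 6 and 10.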

Additional observations from a re-analysis of the deposited data

How the results depend on the processing

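With 3 libraries a group, the counts of genes past the threshold were 0 in each comparison under DESeq2, limma-voom, DESeq2 size factors, no filter, the stricter filter, the replicate block, fits of the compared groups alone (not run for the difference of the effects), unstranded counts, the merged table and without libraries 2, 6 and 10. Leaving out 1 library in turn gave 0 genes in the WT line and 0 to 1 in each of the other 3 comparisons. A count of 1 came without Y273F doxycycline 2 or 3 or Y273F control 2 in the Y273F line, without Y273F doxycycline 2 or 3 in the difference, and without Y273F control 2 between the control lines. No member was among them, since none went below an adjusted p of 0.8054 under any alternative (edgeR, DESeq2 or limma-voom). The members' gaps between library sets kept their direction under each scaling, unstranded counts and merged totals. The replicate block, for numbers not taken as pairs here, left 0 genes past the threshold and gave IL11 in the WT line 0.255. Members' log2 fold changes were not past the threshold anywhere, and turned sign in these cases, for which the cause was not tested. Under limma-voom the WT doxycycline effects were 0.045 for CXCL5, 0.306 for IL11 and -0.024 for LIF, the differences of the effects -0.336 for CXCL8 and 0.625 for DYRK1B, and Y273F control against WT control 0.163 for CXCL8 and -0.491 for DYRK1B. Unstranded counts gave LIF a difference of -0.39, beside 0.633 for doxycycline in the WT line and 0.851 between the control lines. Without libraries 2, 6 and 10 IL11 was at 0.394 for the WT line, the differences were -0.367 for CXCL8, 0.175 for CXCL3, 0.044 for CXCL5 and -0.16 for CCL2, and the control lines gave 0.765 for CXCL8, -0.087 for CXCL1, -0.308 for CXCL3, -0.271 for CXCL5, 0.725 for CCL2, 0.082 for IL11 and -0.18 for DYRK1B.

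Leaving out 1 library in turn, log2 fold changes that turned sign ranged for doxycycline in the WT line as CXCL8 -0.916 to 1.374, CXCL1 -0.426 to 0.034, CXCL3 -0.795 to 0.166, CXCL5 -0.42 to 0.337, CCL2 -2.376 to 2.989, IL11 -2.036 to 2.211 and LIF -0.197 to 0.402. For doxycycline in the Y273F line they ranged as CXCL8 -0.371 to 0.466, CXCL1 -0.219 to 0.004 and DYRK1B -0.247 to 1.779. For the difference of the effects they ranged as CXCL8 -1.298 to 0.992, CXCL1 -0.122 to 0.339, CXCL3 -0.563 to 0.395, CXCL5 -0.744 to 0.012, CCL2 -0.956 to 4.408, IL11 -0.429 to 3.816, LIF -0.086 to 0.52 and DYRK1B -1.685 to 0.59. For Y273F control against WT control they ranged as CXCL8 -1.048 to 0.767, CXCL1 -0.068 to 0.395, CXCL3 -0.334 to 0.423, CXCL5 -0.267 to 0.489, CCL2 -2.64 to 0.752, IL11 -2.859 to 0.101, LIF -0.145 to 0.303 and DYRK1B -0.732 to 0.569. The lowest depth, 2815673 counts, limits IL6, IL1A and CXCL8 most.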
